A study of Mus musculus with 5 samples.

Results

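The 10 genes described here are the neuregulin and EGF family ligands Nrg1, Areg, Ereg, Hbegf, Btc and Egf and the ErbB receptors Egfr, Erbb2, Erbb3 and Erbb4. They were picked by gene symbol out of the 32285 genes of each count matrix, and all 10 were present. The data are single-nucleus RNA-seq counts from livers of male wild-type C57BL6/J mice, in which reads tagged with unique molecular identifiers (UMIs) stand for single RNA molecules. Of 5 libraries, 3 (chow replicates 1 to 3) came from mice on regular chow and 2 (MASH replicates 1 and 2) from mice on a MASH diet, labelled AMYLIN liver NASH diet. Fat gave 40% and fructose 20% of the energy of that diet, which also held cholesterol at 2% and models metabolic dysfunction-associated steatohepatitis. Feeding began at 10 to 12 weeks of age and lasted 5 months. Neither group carried an engineered allele. It is not stated whether a library held 1 mouse or several, so p-values measure only the spread between libraries.

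ErbB receptors are cell-surface tyrosine kinases that signal as pairs after a ligand binds. EGFR binds EGF, amphiregulin, betacellulin, epiregulin and HB-EGF, while ERBB3 and ERBB4 bind neuregulins. ERBB2 binds no known ligand and acts as the partner of the others, and ERBB3 has little kinase activity of its own. Most of these ligands are made as membrane proteins and are released by sheddases of the ADAM family. In the liver, EGFR is known as an abundant hepatocyte receptor with a part in regeneration, and ligands of the family are known from injury and repair.

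All 10 are protein-coding genes in the GENCODE annotation of GRCm38, the build of the authors' matrices. Nrg1 (ENSMUSG00000062991) lies on the minus strand at chr8:31814551-32884029, a span of 1069479 bases. Areg (ENSMUSG00000029378, chr5:91139599-91148432, plus strand), Ereg (ENSMUSG00000029377, chr5:91074622-91093646, plus strand) and Btc (ENSMUSG00000082361, chr5:91357261-91402994, minus strand) lie near each other on chromosome 5. Egf (ENSMUSG00000028017) is at chr3:129677565-129755316 on the minus strand, and Hbegf has the identifier ENSMUSG00000024486. Of the receptors, Egfr (ENSMUSG00000020122) is at chr11:16752203-16918158 and Erbb2 (ENSMUSG00000062312) at chr11:98412470-98437716, both on the plus strand. Erbb3 (ENSMUSG00000018166) is at chr10:128567523-128589652 and Erbb4 (ENSMUSG00000062209) at chr1:68032186-69108059, both on the minus strand. An antisense gene, Egfros, overlaps Egfr on the other strand, and the protein-coding gene Mien1 overlaps Erbb2 on the other strand.

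RefSeq promoters on GRCm38.p6, from 250 bases before to 50 bases after a start, were matched for 6 of the 10 genes (Areg, Btc, Egf, Egfr, Erbb2 and Erbb4). The promoters of Areg, Btc and Egfr are printed because these genes differed between the diets in hepatocytes, the first 2 upward and the third downward. Each is written 5′ to 3′ on the gene's strand, and capitals mark matches on either strand to 4 motifs: the AP-1 site TGANTCA, the cAMP response element TGACGTCA, the GC box GGGCGG and the TATA box TATAAA.
Areg, plus strand, chr5:91139349-91139648: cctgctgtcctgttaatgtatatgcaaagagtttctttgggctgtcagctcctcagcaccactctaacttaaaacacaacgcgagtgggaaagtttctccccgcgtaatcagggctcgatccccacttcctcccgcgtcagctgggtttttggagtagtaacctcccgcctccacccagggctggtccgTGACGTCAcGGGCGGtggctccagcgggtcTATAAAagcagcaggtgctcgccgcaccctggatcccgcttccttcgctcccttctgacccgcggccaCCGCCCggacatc
Btc, minus strand, chr5:91402945-91403244: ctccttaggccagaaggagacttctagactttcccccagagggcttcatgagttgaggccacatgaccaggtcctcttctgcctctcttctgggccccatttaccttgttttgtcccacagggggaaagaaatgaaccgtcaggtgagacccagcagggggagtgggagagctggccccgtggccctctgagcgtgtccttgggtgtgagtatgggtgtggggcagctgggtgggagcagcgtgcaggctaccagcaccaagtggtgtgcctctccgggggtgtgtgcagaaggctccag
Egfr, plus strand, chr11:16751953-16752252: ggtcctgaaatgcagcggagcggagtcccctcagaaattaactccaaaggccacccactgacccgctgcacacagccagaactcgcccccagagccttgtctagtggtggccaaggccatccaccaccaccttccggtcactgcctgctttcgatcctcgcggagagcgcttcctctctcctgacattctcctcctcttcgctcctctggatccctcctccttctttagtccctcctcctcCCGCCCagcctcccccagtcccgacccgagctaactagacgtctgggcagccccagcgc
The Areg window held TGACGTCA beginning 61 bases before the start, GGGCGG beginning 52 bases before it, TATAAA beginning 31 bases before it and a GC box on the other strand 37 bases after it. The Egfr window held 1 GC box, on the other strand 9 bases before the start, and the Btc window held none of the 4 motifs. Among 32851 RefSeq mouse promoters of the same length, 1.79% held TGACGTCA, 13.6% TATAAA, 35.7% a GC box and 7.81% TGANTCA. These matches describe the letters of the windows and do not show that any factor was bound.

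The libraries held 8633 to 12935 barcodes and 35612373 to 49137377 UMIs, of which 7969 to 11574 nuclei per library remained after filters. Nuclei were clustered without the 10 genes, the other pathway genes followed below and the markers of disease-associated hepatocytes. Clusters of the other lineages were named from marker lists. Hepatocyte-like clusters were those without the markers of another class and with a median mitochondrial share under 10%. Hepatocyte-like nuclei numbered 4684 to 9186 per library, hepatic stellate cell (HSC)-like 181 to 1390, immune-like 182 to 2161, endothelial-like 13 to 701 and cholangiocyte-like 9 to 1344. Endothelial-like sums left out chow replicate 2 (13 nuclei), and cholangiocyte-like sums kept only chow replicate 3 (43 nuclei) of the chow libraries. Levels are given as CPM, a gene's UMIs per 1000000 UMIs of all genes in the nuclei of that lineage and library. Each lineage led in its own marker, with Hnf4a at 160 to 398 CPM in hepatocyte-like sums and Reln at 945 to 2020 in HSC-like sums. Ptprb was at 1226 to 2719 in endothelial-like sums, Ptprc at 875 to 1646 in immune-like sums and Pkhd1 at 633 to 1055 in cholangiocyte-like sums. The median mitochondrial share of UMIs was 7.42% in MASH replicate 1 and 0.892% to 3.55% in the other libraries. Pairs of libraries shared 23 to 48 barcode sequences.

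Nrg1, the gene of neuregulin 1, rose in hepatocyte-like nuclei of mice on the MASH diet, together with Areg, Btc and Hbegf, while Egfr fell. Log2 folds come from edgeR's quasi-likelihood test on the summed counts after TMM scaling, with Benjamini-Hochberg adjustment over all genes tested. Of the 10 genes, 8 passed the filter on low counts in hepatocyte-like nuclei, and 5 of these were called at an adjusted p under 0.05, 4 higher and 1 lower in MASH. Across all 14914 genes tested in this lineage 13.7% were called.

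Nrg1 stood at 1.77, 4.82 and 16.5 CPM in the 3 chow libraries and at 244 and 179 in the 2 MASH libraries. The lowest MASH library was 10.8 times the highest chow library, although the chow libraries themselves spread over 9.33 times. The log2 fold was 4.29 (SE 0.92, edgeR adjusted p = 0.0283). The difference was called under every alternative fit that kept all libraries. It was no longer called without chow replicate 2 (3.96, adjusted p = 0.0871), without MASH replicate 1 (3.98, adjusted p = 0.128) or without MASH replicate 2 (4.56, adjusted p = 0.107).

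The share of hepatocyte-like nuclei with at least 1 Nrg1 UMI was compared after thinning each nucleus to 1000 UMIs. It was 0.277%, 0.480% and 1.65% in chow replicates 1 to 3 and 17.4% and 13.1% in MASH replicates 1 and 2. Unthinned, the shares were 0.586%, 1.61% and 6.30% in chow and 39.3% and 31.2% in MASH. Every MASH library was above every chow library, and the two-sided exact permutation test over libraries gave p = 0.1, the smallest value that 3 against 2 libraries allow (adjusted over the 10 genes, 0.2). In immune-like nuclei, taken as a background for free RNA, the thinned shares were 0.943%, 0.781% and 0.472% in chow and 2.07% and 2.56% in MASH. The chow hepatocyte shares of replicates 1 and 2 lay below that background and are not read as expression. That background was imprecise, since chow immune-like nuclei held 6, 2 and 5 Nrg1 UMIs before thinning in replicates 1 to 3. Thinned hepatocyte-like nuclei with Nrg1 numbered 16 and 44 in chow replicates 1 and 2. Whether immune-like nuclei made Nrg1 of their own was not tested. Median depth was 3148 to 4269 UMIs per hepatocyte-like nucleus and 886 to 1198 per immune-like nucleus, and thinning left out 84 of 23311 hepatocyte-like nuclei in chow and 151 of 9459 in MASH.

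Areg, the gene of amphiregulin, was nearly absent in chow and low in MASH. It was carried by 4, 3 and 1 UMIs in chow hepatocyte-like nuclei, or 0.150, 0.0897 and 0.0252 CPM, and by 52 and 37 UMIs in MASH, or 2.56 and 1.66 CPM. The log2 fold was 4.31 (SE 0.63, edgeR adjusted p = 0.0103). The diet groups did not overlap, on few molecules in all. The call was lost without MASH replicate 1 (adjusted p = 0.102) and without MASH replicate 2 (0.0634).

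Btc, the gene of betacellulin, was at 3.76, 3.98 and 2.97 CPM in chow and 19.9 and 20.7 in MASH hepatocyte-like nuclei. The 3 chow libraries were close together, as were the 2 MASH libraries, and the groups did not overlap. Its log2 fold of 2.19 had the smallest error of the 5 called genes (SE 0.25, edgeR adjusted p = 0.00519). The call was lost without either MASH library (adjusted p = 0.0727 and 0.0706).

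Hbegf, the gene of heparin-binding EGF-like growth factor, rose from 1.13, 1.05 and 1.41 CPM in chow to 5.26 and 4.71 in MASH (log2 fold 1.70, SE 0.42, edgeR adjusted p = 0.0402). The groups did not overlap, but the call was lost without chow replicate 1, chow replicate 2, MASH replicate 1 or MASH replicate 2 (adjusted p 0.0542, 0.0954, 0.279 and 0.224). Pkhd1, the cholangiocyte marker, moved with the diet in the same hepatocyte-like sums, from 5.31 to 13.6 CPM in chow to 46.3 to 48.7 in MASH. Hbegf in cholangiocyte-like sums was at 35.2 and 49.0 CPM in MASH. The part of cholangiocyte RNA in the hepatocyte values was not tested.

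Egf itself was at 8.31, 6.88 and 3.27 CPM in chow and 12.2 and 12.6 in MASH. Both MASH libraries were above the chow libraries, but the log2 fold of 0.75 (SE 0.33) did not pass the test (edgeR adjusted p = 0.162). Ereg, the gene of epiregulin, had 4 UMIs in all chow and 10 in all MASH hepatocyte-like nuclei and was not tested there.

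Egfr, the receptor of 5 of these ligands, was the only one of the 4 receptors that was called in hepatocyte-like nuclei. It was at 677, 1741 and 1634 CPM in chow and at 84.1 and 125 in MASH. Chow replicate 1 was the lowest of the chow libraries, and it was still 5.41 times the highest MASH library. Egfr fell by 4.09 on the log2 scale (SE 0.65, edgeR adjusted p = 0.0131). It was called without any single chow library but not without MASH replicate 1 (adjusted p = 0.127) or MASH replicate 2 (0.116). In bulk sums of nuclei, fewer nuclei with the transcript and fewer molecules per nucleus both lower the value, and the share of thinned nuclei with an Egfr UMI was 64.9% ± 22.0 (SD, n = 3) in chow and 9.51% ± 2.13 (SD, n = 2) in MASH, with an exact permutation p = 0.2.

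Erbb3 and Erbb4, the neuregulin receptors, did not pass the test. Erbb3 was at 219, 96.7 and 119 CPM in chow and 162 and 201 in MASH, and chow replicate 1 lay above both MASH libraries. Its log2 fold was 0.03 (SE 0.32, edgeR adjusted p = 0.957). Erbb4 was at 6.66, 7.18 and 5.06 in chow and 8.66 and 7.80 in MASH, with a log2 fold of 0.08 (SE 0.29, adjusted p = 0.877). The unscaled values of Erbb4 did not overlap, whereas TMM scaling, whose factors ran from 0.761 to 1.20, brought the fold near 0. Without that scaling the median log2 fold of all genes was 0.29, in place of -0.02, and 5 members were again called.

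Erbb2, the shared receptor partner, was close to absent in hepatocyte-like nuclei. It had 5 UMIs in chow and 20 in MASH and did not pass the filter on low counts. Its ratio of summed levels was 9.36, with a 95% exact interval of 3.41 to 31.9 that covers counting error only.

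**Figure D1:**
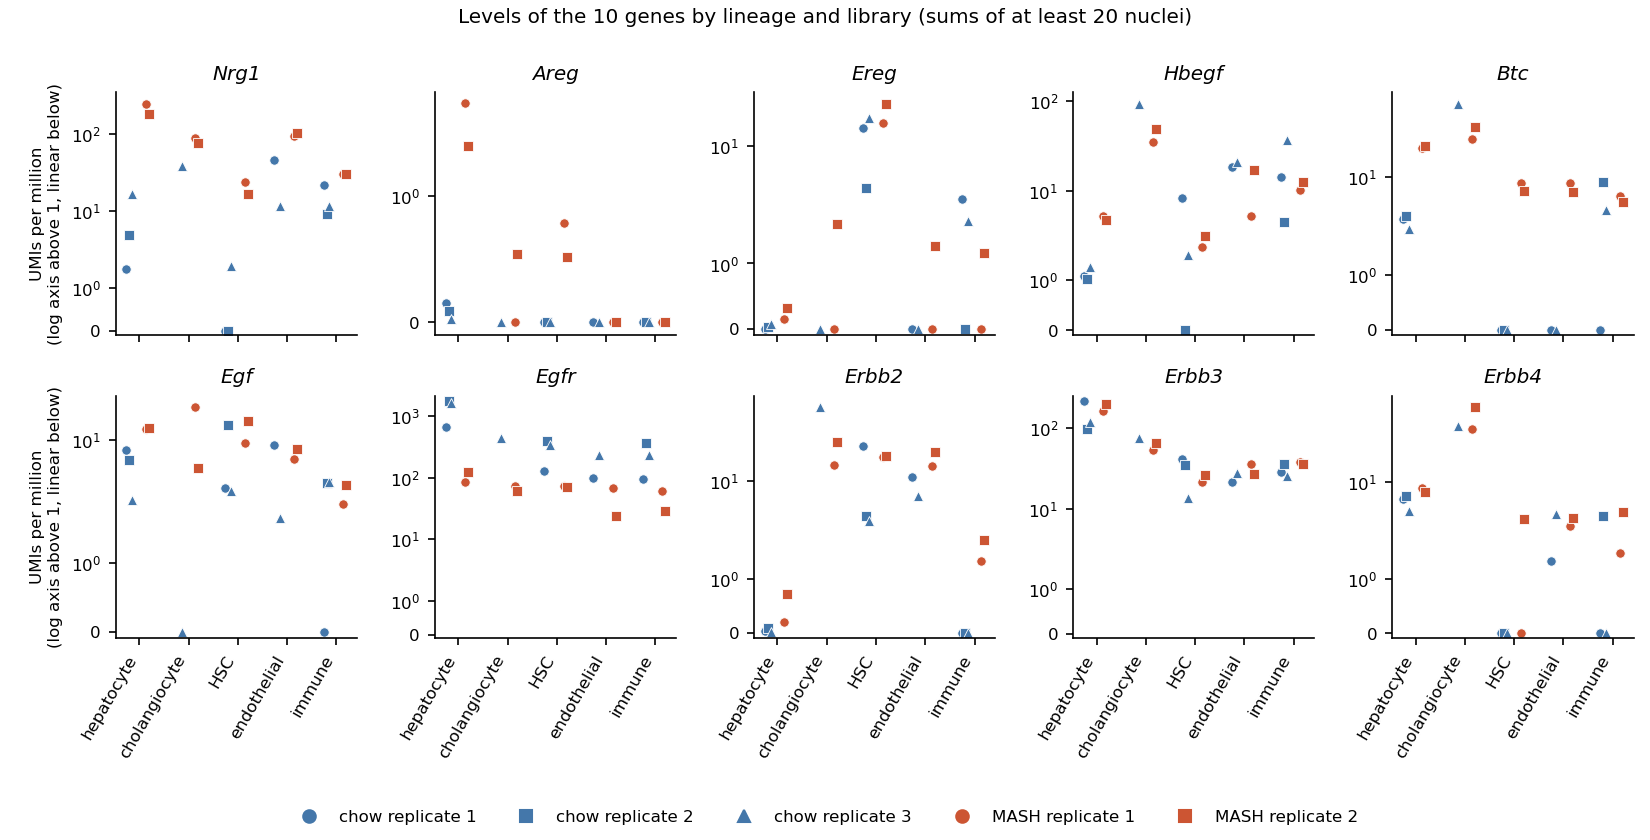
Level of each gene in CPM, on an axis that is logarithmic above 1 and linear below, in each lineage. Each point is 1 library (blue, chow; orange, MASH; shape, replicate) and sums under 20 nuclei are left out. In hepatocyte sums the MASH points of Nrg1, at 179 and 244, lie above the chow points, at 1.77 to 16.5, and those of Egfr, at 84.1 and 125, lie below the chow points, at 677 to 1741.

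The lineages were then compared for the source of each ligand. Their levels are a description, since the nuclei were grouped by clustering. In MASH, Nrg1 was highest in hepatocyte-like nuclei (244 and 179 CPM), followed by endothelial-like (93.5 and 101) and cholangiocyte-like nuclei (86.9 and 75.9), which differed little from each other. Immune-like nuclei (29.6 and 29.7) and HSC-like nuclei (23.5 and 16.5) were lower. Endothelial-like Nrg1 was 38.3% and 56.8% of the hepatocyte level, with the hepatocyte genes Cps1 at 76.7% and 40.5% and Hnf4a at 21.5% and 15.8%. Cholangiocyte-like Nrg1 was at 35.6% and 42.5%, with Cps1 at 66.8% and 26.5% and Hnf4a at 25.3% and 21.1%. The hepatocyte genes Fgb, Ttr and Alb stood above Nrg1 in each of these sums, at 47.4% or more. Ppara, another, stood below it, at 8.13% to 11.7%. The part of free hepatocyte RNA in these Nrg1 levels was not tested. In chow the order was different and uncertain, because endothelial-like nuclei were at 46.1 and 11.6 CPM, from 35 UMIs in all, and hepatocyte-like nuclei at 1.77 to 16.5. Within immune-like nuclei of MASH livers, macrophage-like nuclei held Nrg1 at 29.4 and 31.3 CPM and T-like nuclei at 25.9 and 19.4.

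By number of molecules, hepatocyte-like nuclei carried 76.3% ± 23.1 (SD, n = 3) of all Nrg1 UMIs in chow and 84.9% ± 0.872 (SD, n = 2) in MASH. Chow replicate 1 was the lowest at 50%, with 31.9% of its 94 Nrg1 UMIs in endothelial-like nuclei. Nuclei of unnamed clusters held a further 9.93% ± 4.09 in chow and 10.2% ± 2.87 in MASH. These shares depend on how many nuclei of each lineage were recovered as well as on the level in each.

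Areg and Btc followed hepatocytes in MASH. Hepatocyte-like nuclei carried 85.0% ± 1.54 (SD, n = 2) of Areg UMIs and 77.3% ± 1.31 of Btc UMIs, and Areg was at or below 0.785 CPM in the other named lineages. Btc was at 24.8 and 32.3 CPM in MASH cholangiocyte-like nuclei while hepatocyte-like nuclei stood at 19.9 and 20.7. No Btc UMI was seen in chow HSC-like nuclei and 25 in those of MASH livers, which is at least 3.19-fold higher against a floor of 3 UMIs over the chow group. For endothelial-like nuclei these counts were 0 and 10, at least 2.83-fold higher. In MASH, Btc stood at 43.3% and 34.9% of the hepatocyte level in HSC-like and at 44.3% and 34.1% in endothelial-like sums. Over all libraries the same 2 lineages held 34.9% to 105% of the hepatocyte level of the hepatocyte gene Fgb. For Hnf4a, another hepatocyte gene, the range was 11.3% to 31.2%. Ppara ran from 5.50% to 14.3% and Cps1 from 24.0% to 89.7%. Ttr was at 64.9% to 286% and Alb at 116% to 313%. The part of hepatocyte RNA in their Btc was not tested.

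Ereg had another source in MASH. HSC-like nuclei held it at 14.4, 4.39 and 17.4 CPM in chow and 15.7 and 23.2 in MASH, and carried 68.5% ± 5.70 (SD, n = 2) of its UMIs in MASH. The diet groups overlapped, with a ratio of summed levels of 1.46 (95% exact interval for counting error 0.848 to 2.66). In the other lineages kept for testing Ereg stayed at or below 3.57 CPM. Chow replicates 1 to 3 held 12, 4 and 23 Ereg UMIs in all kept nuclei. HSC-like nuclei carried 40.8% ± 16.7 (SD, n = 3) of them and unnamed clusters 42.3% ± 8.40, so the chow source is not resolved.

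Hbegf was highest in cholangiocyte-like nuclei, at 93.9 CPM in chow replicate 3 and 35.2 and 49.0 in MASH. Endothelial-like nuclei held it at 18.4 CPM in chow replicate 1, 20.9 in chow replicate 3 and 5.29 and 16.9 in MASH. Immune-like nuclei held 14.3, 4.51 and 36.9 in the 3 chow libraries and 10.1 and 12.4 in MASH, with the diet groups overlapping. Neither of these lineages was above the other in every library. Hepatocyte-like nuclei, at 1.05 to 1.41 CPM in chow, carried by their number 49.8% ± 12.7 (SD, n = 3) of Hbegf UMIs in chow and 45.9% ± 9.96 (SD, n = 2) in MASH.

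Receptors split between the lineages. Erbb2 was carried by non-hepatocytes, at 14.5 and 24.8 CPM in MASH cholangiocyte-like nuclei, 17.3 and 18.0 in HSC-like and 14.1 and 19.7 in endothelial-like nuclei, whose ranges overlapped. Erbb4 was highest in MASH cholangiocyte-like nuclei, at 35.2 and 59.2 CPM, against 8.66 and 7.80 in hepatocyte-like nuclei. Erbb3 was highest in hepatocyte-like nuclei, where both MASH libraries (162 and 201) lay above MASH cholangiocyte-like nuclei (53.8 and 65.7). In HSC-like, endothelial-like and immune-like sums Erbb3 stood at 9.83% to 37.3% of the same library's hepatocyte level. Hnf4a, a hepatocyte gene, stood at 11.3% to 35.5% in those sums and Ppara, another, at 5.50% to 27.6%. Other hepatocyte genes ran higher there, with Cps1 at 24.0% to 89.7% and Fgb at 34.9% to 108%. Ttr was at 64.9% to 286% and Alb at 116% to 313%. The part of free hepatocyte RNA in Erbb3 was not tested.

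**Figure D2:**
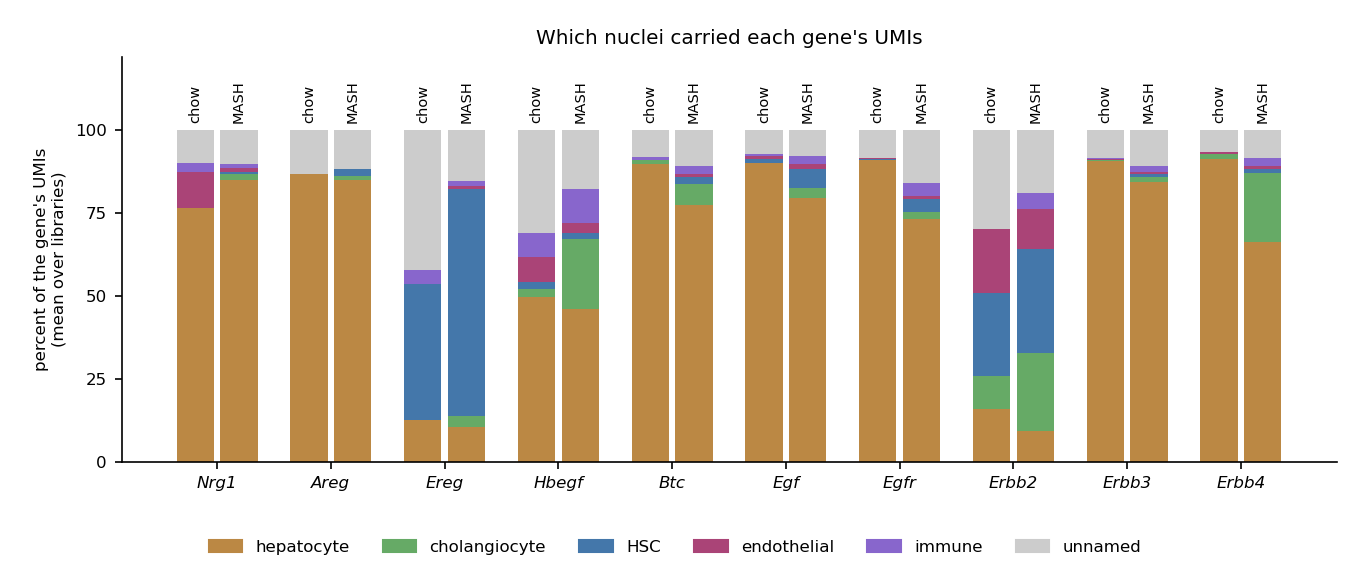
Percent of each gene's UMIs found in nuclei of each lineage, as stacked means over the 3 chow and the 2 MASH libraries. Hepatocyte-like nuclei hold 84.9% of Nrg1 UMIs and HSC-like nuclei 68.5% of Ereg UMIs in MASH.

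Outside hepatocytes edgeR called no member for diet in a lineage with more than 1 library per group. In cholangiocyte-like nuclei the chow group was 1 library of 43 nuclei, so the difference has no replicate check in chow, and its values are given as a description. Egfr was at 451 CPM in that library, from 24 UMIs, and at 72.4 and 61.4 in MASH. The edgeR fit, which assumed the lone chow library to vary like the MASH libraries, put Egfr alone of 7 members past the threshold, as it did 1.13% of all 8514 genes. With DESeq2, or with all libraries whatever their number of nuclei, no member was called. In HSC-like nuclei none of 2 members tested was called by edgeR, against 1.08% of 8069 genes. In endothelial-like nuclei none of 4 was called, against 0.614% of 8466 genes, and in immune-like nuclei none of 3, against 0.82% of 7562 genes.

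For Egfr the MASH values lay below the chow values in each of these lineages. Its log2 difference was -2.08 (SE 0.53, edgeR adjusted p = 0.0982) in HSC-like, -1.76 (SE 0.61, adjusted p = 0.328) in endothelial-like and -2.35 (SE 0.63, adjusted p = 0.151) in immune-like nuclei. Egfr in these lineages stood at 14.1% to 87.8% of the hepatocyte level of the same library. Cps1, a hepatocyte gene, stood at 24.0% to 89.7% in the same sums, above Egfr in each chow sum. In MASH HSC-like sums Egfr stood at 87.8% and 57.6% and Cps1 at 50.8% and 24.0%. Of the other hepatocyte genes compared, Alb (206% and 116%) and Ttr (110% and 64.9%) stood above Egfr in those HSC-like sums. Fgb (86.4% and 46.8%), Hnf4a (13.4% and 13.8%) and Ppara (9.91% and 8.30%) stood below it. In MASH replicate 1 Egfr was also above Cps1 in endothelial-like (81.9% against 76.7%) and immune-like sums (72.8% against 63.0%). In MASH replicate 2 Egfr was below Cps1 there, at 19.2% against 40.5% and 23.3% against 31.6%. Fgb, Ttr and Alb stood above Egfr in the endothelial-like and immune-like sums of each MASH replicate, and Hnf4a and Ppara below it. The part of free hepatocyte RNA in these Egfr values was not tested. DESeq2 called Egfr in HSC-like (adjusted p = 0.0175) and immune-like nuclei (0.0263). Without chow replicate 1, edgeR called it in HSC-like (-2.50, adjusted p = 0.0103), endothelial-like (-2.38, adjusted p = 1.45e-05) and immune-like nuclei (-2.78, adjusted p = 0.0428).

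Nrg1 outside hepatocytes was called in none of the 3 lineages where it was tested. It was at 46.1 and 11.6 CPM in chow and 93.5 and 101 in MASH endothelial-like nuclei (log2 fold 1.80, SE 0.48, edgeR adjusted p = 0.159) and at 21.4, 9.02 and 11.5 in chow and 29.6 and 29.7 in MASH immune-like nuclei (1.12, SE 0.47, adjusted p = 0.407). In endothelial-like nuclei it was called without chow replicate 1 (2.99, adjusted p = 0.000237) or without MASH replicate 2 (1.94, adjusted p = 0.0483). In cholangiocyte-like nuclei the log2 fold was 1.04 (SE 0.90, adjusted p = 0.666), with a chow value of 37.5 CPM that came from 2 UMIs and lay under the floor of 56.3 that 3 UMIs give. HSC-like nuclei held 0, 0 and 1.94 CPM in chow, 1 UMI in all, and 23.5 and 16.5 in MASH. That gene was not tested there, and the ratio of summed levels was 23.7, with a 95% exact counting interval of 4.10 to 952. In MASH, Nrg1 stood at 9.64% and 9.22% of the same library's hepatocyte level in HSC-like sums and at 12.1% and 16.6% in immune-like sums. Hnf4a stood at 13.4% and 13.8% in those HSC-like sums and at 23.6% and 17.4% in those immune-like sums, above Nrg1 in each. Ppara, another hepatocyte gene, stood at 9.91% and 8.30% in the HSC-like and at 10.8% and 8.19% in the immune-like sums. Nrg1 was above Ppara in each of these except HSC-like sums of MASH replicate 1. Cps1, Fgb, Ttr and Alb stood above Nrg1 in each of these MASH sums, at 24.0% or more. In chow, immune-like Nrg1 stood at 1212%, 187% and 69.8% of the hepatocyte level in replicates 1 to 3, from 13 UMIs in all. HSC-like Nrg1 stood there at 0%, 0% and 11.8%. The part of free hepatocyte RNA in Nrg1 was not tested, and the Nrg1 levels of these 2 lineages are not read as their own expression.

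**Figure D3:**
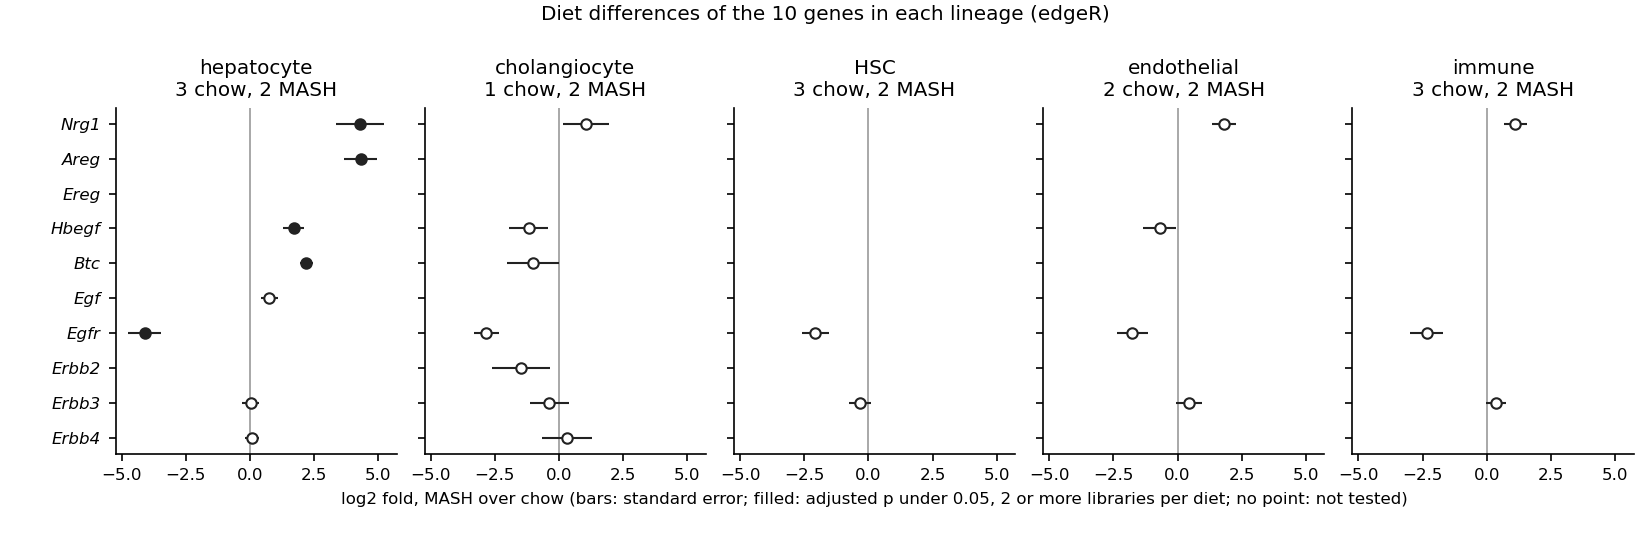
Log2 fold of MASH over chow for each tested member in each lineage, from edgeR, with bars of 1 standard error. Filled points passed an adjusted p of 0.05 in lineages with at least 2 libraries per diet, and members with no point did not pass the filter on low counts. Filled points are Nrg1, Areg, Hbegf, Btc and Egfr in hepatocyte-like nuclei, and cholangiocyte-like nuclei, with 1 chow library, have open points only.

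Whether a diet difference was larger in hepatocyte-like than in other nuclei was tested as an interaction in 1 edgeR fit with the library as a block. Areg did not pass the filter of this fit. Against endothelial-like nuclei 3 of the 9 members tested were called, where 5.24% of all 13045 genes were. The difference of log2 folds was 3.11 for Nrg1 (SE 0.74, edgeR adjusted p = 0.00806), 2.34 for Hbegf (SE 0.69, adjusted p = 0.041) and -1.73 for Egfr (SE 0.47, adjusted p = 0.0214). The Nrg1 value depended on chow replicate 1: leaving that library out gave 0.061 (adjusted p = 1). It was not called without MASH replicate 1 (0.198) or MASH replicate 2 (0.137). Without MASH replicate 1 the Egfr value was -0.54 (adjusted p = 0.923) and without chow replicate 3 its adjusted p was 0.0959. Hbegf was called under no fit that left out 1 of the 4 libraries with an endothelial-like sum.

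Against immune-like nuclei the same 3 members were called, where 8.31% of all genes were. The difference was 3.37 for Nrg1 (SE 0.97, edgeR adjusted p = 0.025), 2.50 for Hbegf (SE 0.62, adjusted p = 0.00747) and -1.68 for Egfr (SE 0.41, adjusted p = 0.00643). Nrg1 kept its direction without each library, at 2.11 to 4.88, and lost the call without chow replicate 2 or either MASH library. Egfr was at -0.62 (adjusted p = 0.733) without MASH replicate 1, and Hbegf at 1.58 (adjusted p = 0.384) without chow replicate 3. Hbegf was not called without either MASH library (adjusted p = 0.157 and 0.167).

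Against HSC-like nuclei Egfr alone was called, at -1.96 (SE 0.39, edgeR adjusted p = 0.00117), where 6.38% of all genes were, and it was called without each library in turn. Nrg1 was at -0.03 (SE 1.27, adjusted p = 1) there. Against cholangiocyte-like nuclei no member was called, where 0.414% of all genes were and 1178 genes had an unadjusted p under 0.05. Of the members tested there, Hbegf (2.41, adjusted p = 0.416) and Egfr (-1.50, adjusted p = 0.356) had unadjusted p under 0.05, as did Btc and Erbb2.

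Hepatocytes change along the lobule, from the portal to the central vein. Hepatocyte-like nuclei of each library were ordered by a score of pericentral against periportal markers and cut into 3 tertiles of equal number. As a description of the cut, since both genes are part of the score, Glul was at 24.9 CPM in the periportal and 299.9 in the pericentral tertile of chow, and 42.2 and 1007 in MASH. Hal, a periportal gene, went from 562 to 36.4 in chow and from 312 to 14.8 in MASH.

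Nrg1 was lower in the pericentral tertile in both diets. In chow it was at 1.99, 5.97 and 21.1 CPM in the periportal tertile and at 0.305, 2.85 and 12.3 in the pericentral tertile of replicates 1 to 3. In MASH it was at 256 and 219 in the periportal, 335 and 224 in the middle and 148 and 105 in the pericentral tertile. Each library was lower at the pericentral end than at the periportal end. The difference was -1.01 on the log2 scale in chow (SE 0.21, edgeR adjusted p = 0.00146) and -0.96 in MASH (SE 0.12, adjusted p = 7.59e-05). The chow values rest on few UMIs, 16 and 3 in the periportal and pericentral tertile of replicate 1, 64 and 33 in replicate 2 and 266 and 173 in replicate 3. Since the shares of replicates 1 and 2 lay below the free-RNA background, their zone values are not read as expression either, and the part of free RNA in the chow difference was not tested. That background itself rested on 6 and 2 Nrg1 UMIs of immune-like nuclei in chow replicates 1 and 2.

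The size of the Nrg1 zone difference did not pass a test between the diets (interaction 0.05, SE 0.23, edgeR adjusted p = 0.937). That depended on the cut. With the score limits of all chow nuclei applied to every library, MASH replicates 1 and 2 held 1093 and 824 periportal and 2160 and 2432 pericentral nuclei. The MASH difference was then -0.23 (edgeR adjusted p = 0.165) and the interaction 0.90 (adjusted p = 0.00878). Across all 13905 genes, 32.7% were called between zones in chow, 13.7% in MASH and 7.58% for the interaction, against 3 of 8, 2 of 8 and 1 of 8 members tested.

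Egfr followed the same order in every library. It was at 892, 1839 and 1696 CPM in the periportal and 505, 1641 and 1547 in the pericentral tertile of chow, a difference of -0.47 (SE 0.10, edgeR adjusted p = 0.00196). In MASH it was at 104 and 152 against 64.7 and 102, a difference of -0.66 (SE 0.13, adjusted p = 0.00364). The MASH difference was not called without MASH replicate 1 (adjusted p = 0.17) or MASH replicate 2 (0.105). In each tertile the chow libraries, at 505 or more, lay above the MASH libraries, at 152 or less. The interaction of zone and diet was -0.19 (adjusted p = 0.561), and -0.42 (adjusted p = 0.00177) without chow replicate 1.

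Erbb3 ran the other way. In chow it was at 181, 74.5 and 80.2 CPM in the periportal and 244, 120 and 166 in the pericentral tertile, a difference of 0.63 (SE 0.09, edgeR adjusted p = 6.13e-05). In MASH it was at 147 and 196 against 178 and 205, a difference of 0.14 (SE 0.11, adjusted p = 0.498). The change in slope between diets was -0.49 (SE 0.14, adjusted p = 0.0448). It kept its sign without each library, at -0.65 to -0.33, and among the fits that left out 1 library it was called only without chow replicate 1.

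The other ligands and Erbb4 were not called between zones in either diet. Hbegf was at -0.90 in chow (edgeR adjusted p = 0.0804) and -0.80 in MASH (adjusted p = 0.165), Areg at -1.13 (0.532) and -1.74 (0.0863), Egf at 0.41 (0.0764) and 0.25 (0.432), Btc at 0.25 (0.46) and -0.05 (0.909), and Erbb4 at -0.14 (0.475) and -0.11 (0.798). In MASH the middle tertile held the highest Hbegf values, 9.13 and 6.95 CPM against 4.11 and 4.84 in the periportal tertile. That difference did not pass the test (0.79, SE 0.29, adjusted p = 0.182).

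**Figure D4:**
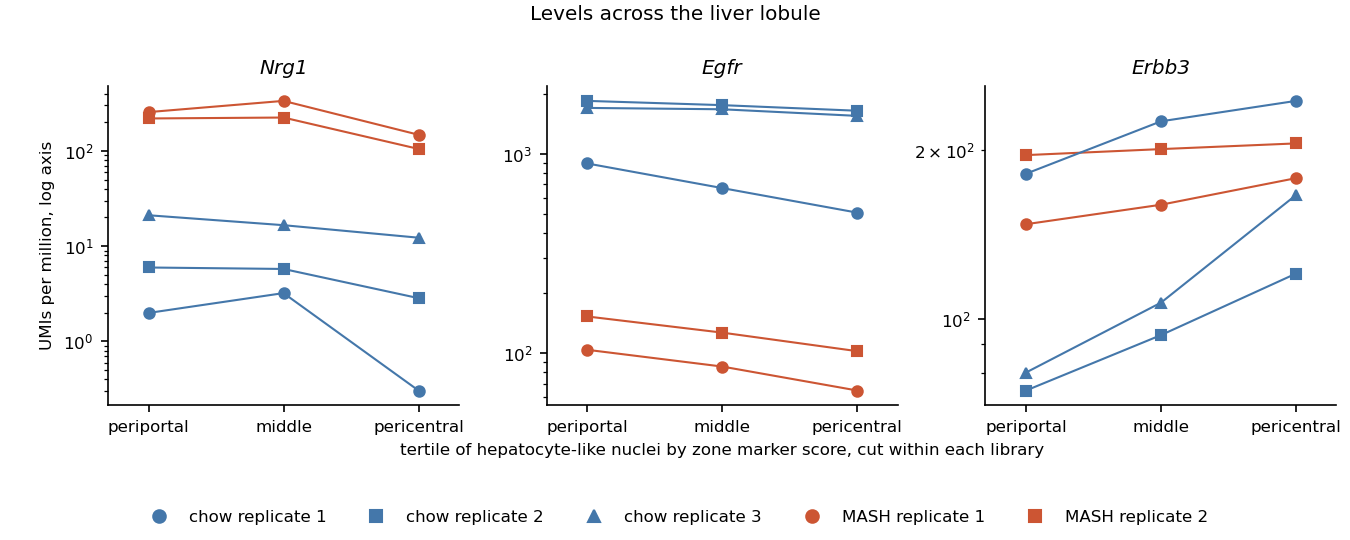
Nrg1, Egfr and Erbb3 in CPM, on logarithmic axes, in the periportal, middle and pericentral tertile of hepatocyte-like nuclei, with 1 line per library. Every line of Nrg1 and Egfr ends lower at the pericentral side than it begins, and every line of Erbb3 ends higher.

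Hepatocyte-like nuclei fell into 7 sub-clusters. Of these, 3 had no name by the markers and are left out here, with 11157 of the 32770 nuclei. A cluster of 6559 nuclei was led by Mt2, Mt1, Cxcl1 and Tnfrsf12a and had Nrg1 among its 10 leading genes. It held 966, 1756 and 2408 nuclei of chow replicates 1 to 3 and 775 and 654 of MASH replicates 1 and 2. In its MASH nuclei Anxa2 was at 101 ± 15.9 CPM (SD, n = 2) and Sox4 at 79.1 ± 8.35, against 0.991 ± 0.496 (SD, n = 3) and 0.360 ± 0.221 in its chow nuclei. Both are markers of disease-associated hepatocytes in the study. Their levels differed between the diets in the other sub-clusters as well, with Anxa2 at 0.778 to 1.08 CPM in chow and 37.6 and 27.6 in MASH replicates 1 and 2 in periportal-like nuclei, and at 2.02 to 5.79 in chow and 54.9 and 45.1 in MASH in pericentral-like nuclei. Sox4 was at 0.196 to 0.648 in chow and 19.8 and 25.3 in MASH in periportal-like nuclei and at 0 to 1.70 in chow and 6.86 and 3.47 in MASH in pericentral-like nuclei. Because the cluster was formed on the same nuclei, its values are a description with no test. The study described its disease-associated hepatocytes as rare in healthy liver, and this cluster is not equated with them.

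Nrg1 in this cluster was at 5.35, 11.2 and 25.8 CPM in chow and 616 and 546 in MASH. The 2 periportal-like clusters held it at 195 and 130 in MASH, and the pericentral-like cluster, led by Slc1a2 and Glul, at 50.6 and 54.4. The order of the 3 was the same in both MASH libraries. Of the periportal-like clusters, one of 4361 nuclei was led by Etnppl and Hal, while the 10 leading genes of the other, of 7896 nuclei, were all mitochondrial. The latter had a median of 2166 UMIs per nucleus against 3770 to 5041 in the other sub-clusters, and the part of RNA quality in its values was not tested. Hbegf was at 22.4 and 19.7 CPM in the Mt2-led cluster of MASH, against 2.81 and 3.90 in periportal-like and 1.72 and 0.386 in pericentral-like nuclei.

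Areg was also highest in the Mt2-led cluster in MASH, at 9.26 and 5.23 CPM, against 1.18 and 1.87 in periportal-like nuclei and 0.429 and 0 in pericentral-like nuclei, the last from 1 UMI in all. Btc was at 25.8 and 31.4 in the Mt2-led cluster, 17.6 and 17.0 in periportal-like and 13.3 and 17.4 in pericentral-like nuclei. The Mt2-led cluster was the highest for Btc in both MASH libraries, while the other two groups changed places between the libraries. Egfr was at 112 and 147 in the Mt2-led cluster in MASH, below its 1437, 2153 and 1757 in chow. In MASH Egfr stood at 97.8 and 150 CPM in periportal-like and 47.6 and 65.2 in pericentral-like nuclei.

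**Figure D5:**
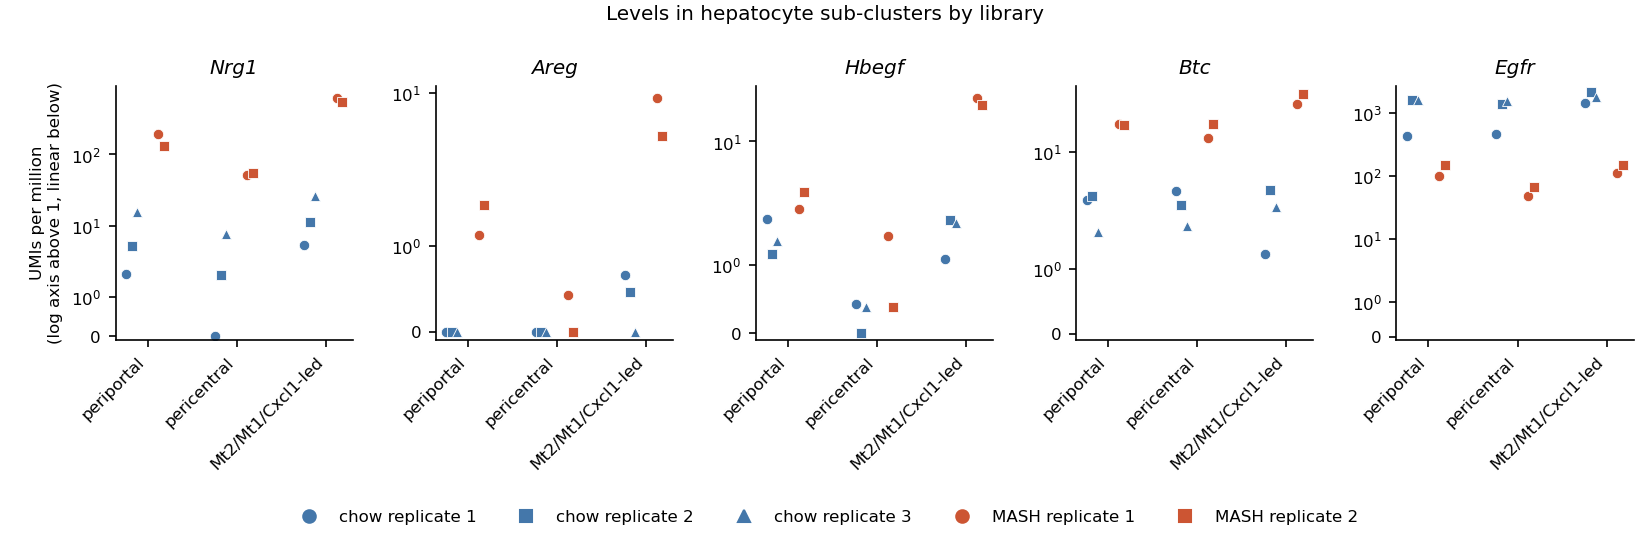
Levels in CPM (axis logarithmic above 1, linear below) of 4 ligands and Egfr in 3 groups of hepatocyte sub-clusters, with 1 point per library. In MASH the Mt2-led cluster holds Nrg1 at 616 and 546, above periportal-like (195 and 130) and pericentral-like nuclei (50.6 and 54.4).

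Nuclei with and without an Nrg1 UMI were compared for the receptors within each MASH library after thinning. Egfr was detected in 6.09% of 805 Nrg1-positive nuclei of MASH replicate 1 (95% Wilson interval 4.63% to 7.96%) and in 8.41% of 3830 Nrg1-negative nuclei (7.57% to 9.33%). In MASH replicate 2 it was 10.2% of 610 (8.01% to 12.8%) and 11.1% of 4063 (10.2% to 12.2%). Erbb3 was found in 12.0% and 14.8% of the nuclei with and without Nrg1 in replicate 1 and in 15.9% and 18.2% in replicate 2. Both receptors were found in a smaller share of the Nrg1-positive nuclei in each MASH library. Their intervals overlapped in each library, but overlap is not a test of the difference, and none was made. The intervals cover counting error only, with nuclei as the units.

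Genes with the pattern most like Nrg1 were found by Pearson correlation of log2(CPM + 1) over 22 sums of a library and lineage, among 12996 genes. The 5 highest were Rassf3 (r = 0.79), Ivns1abp (0.78), Zzz3 (0.76), Itga6 (0.76) and Frrs1 (0.76). Sums of the same library share its depth and free RNA, so these values describe likeness only.

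The rest of the pathway was followed in hepatocyte-like nuclei with 47 genes in 5 lists. Of the 44 that passed the filter on low counts, edgeR called 4, or 9.09%, against 13.7% of all genes tested in this lineage, and of these 2 rose and 2 fell. Among 14 feedback inhibitors of the pathway Cblb, a ubiquitin ligase of receptor kinases, rose by 1.35 on the log2 scale (SE 0.26, edgeR adjusted p = 0.0212), from a mean of 27.3 to 83.7 CPM. Lrig1, a membrane protein that promotes the breakdown of ErbB receptors, fell by 0.97 (SE 0.25, adjusted p = 0.0468), from 28.1 to 18.1. The other 12 did not pass the test, and the median of the list was 0.19 against -0.02 for all genes.

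Of 9 transcripts known to respond to ERK signalling, Ccnd1, the gene of cyclin D1, rose by 2.63 (SE 0.45, edgeR adjusted p = 0.0156), from a mean of 6.29 to 49.4 CPM. Phlda1 fell by 2.91 (SE 0.43, adjusted p = 0.0109), from 827 to 131, and the other 7 did not pass, with a list median of -0.85. Phlda1 also fell in immune-like nuclei (-2.47, SE 0.41, adjusted p = 0.0216), from a mean of 142 to 25.0 CPM. Hepatocyte genes were lower in the same immune-like sums of MASH livers, with Cps1 at 325 to 844 CPM in chow and 145 to 225 in MASH and Fgb at 1039 to 3038 and 377 to 645, and the part of free hepatocyte RNA in this Phlda1 difference was not tested. None of 15 adaptors and RAS-ERK genes and none of a list of 4 genes of ligand shedding (the sheddases Adam10 and Adam17 and Rhbdf1 and Rhbdf2, which encode iRhoms, inactive partners of ADAM17) was called by edgeR in hepatocyte-like nuclei, with list medians of -0.03 and 0.21. Of the other ligands, Tgfa and Nrg4 were tested and not called, and Nrg4 was at a mean of 138 CPM in chow and 40.4 in MASH with overlapping libraries (adjusted p = 0.181).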

How the data were processed

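The authors sorted liver nuclei, made 10x 3′ v3 libraries and aligned them with Cell Ranger 8.0.1 to GRCm38. By the paper's methods, intronic reads were not counted. The deposited values are raw UMI counts per gene and nucleus, filtered for barcodes, with 35612373 to 49137377 UMIs per library. Nuclei with under 300 genes were left out here. Scrublet's automatic limit marked 0 to 3 nuclei per library and so had not worked. The nuclei with the highest doublet scores were removed instead, at 0.8% per 1000 nuclei. Nuclei were clustered with Seurat 5.3.0 (3000 variable genes without the 10 members, 15 principal components), and a cluster was named for a lineage with at least 3 of its markers. Some clusters kept no name. A rebuilt name may differ from the study's.

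Counts were summed per library and lineage, leaving out sums under 20 nuclei. edgeR 4.0.16 (R 4.3.3) fitted quasi-likelihood models with TMM scaling and filterByExpr, and p-values were adjusted by Benjamini-Hochberg over all genes tested at a threshold of 0.05. Zone and lineage interactions had the library as a block. Scripts were tested on simulated counts. Alternatives were RLE scaling, no filter, DESeq2 1.42.0, Storey q-values, a replicate block, a doubled doublet rate, lineages set by 1 marker gene, common zone limits and each library left out. No scaling and no minimum of nuclei were added after seeing the data. Replicate numbers did not pair the libraries, since same-numbered libraries had correlations of deviations of -0.37 to -0.11.

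The named genes were the 10 members and, in hepatocyte-like nuclei, every pathway gene called, with those not called counted. Pathway genes named without a call, the sub-cluster values and the 5 genes most like Nrg1 are descriptions. Members, lists and tests were chosen with earlier results of these data known. Counting intervals and floors (3 counts) cover counting error only.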

Additional observations from a re-analysis of the deposited data

Results flagged for a closer look

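Of the tests of whether a difference itself varied between lineages or diets (interaction terms), 8 results passed in edgeR. For the diet difference in hepatocyte-like minus that in other nuclei, in log2 units, these were Egfr against HSC-like nuclei (-1.96), Nrg1 (3.11), Hbegf (2.34) and Egfr (-1.73) against endothelial-like nuclei, and Nrg1 (3.37), Hbegf (2.50) and Egfr (-1.68) against immune-like nuclei. The remaining one was the pericentral minus periportal difference of Erbb3, which was 0.49 smaller in MASH than in chow (-0.49 as MASH minus chow). Among these 8, Egfr against HSC-like nuclei alone was called without each library in turn.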

How the results depend on the processing

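In hepatocyte-like nuclei 5 members were called under each alternative that kept all libraries, and 0 to 5 with 1 library left out (3 without chow replicate 2, and 0 without MASH replicate 1 or without MASH replicate 2). There Nrg1 ranged from 3.79 to 5.73 and Egfr from -4.47 to -3.81 with 1 library left out. The replicate block gave 5.90 for Nrg1 and -3.61 for Egfr, with 5 members called, and it changed no call in HSC-like or immune-like nuclei (0 members in each); the numbers did not pair the libraries. Erbb3 turned to -0.0021 with lineages set by 1 marker gene and ranged from -0.22 to 0.27 with 1 library left out (-0.059 without MASH replicate 2), Erbb4 ranged from -0.071 (without MASH replicate 1) to 0.21, and Erbb3 in HSC-like nuclei was at 0.17 with 1 marker gene.

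Members called in cholangiocyte-like nuclei were 0 with DESeq2, 2 with 1 marker gene and 0 with no minimum of nuclei. No left-out library or paired fit was made there, since only 1 chow sum was kept. In HSC-like nuclei they were 1 with no scaling, 3 with no filter, 1 with DESeq2, 1 with 1 marker gene and 0 to 1 with 1 library left out. In endothelial-like nuclei they were 1 with no scaling, 2 with no filter, 2 with 1 marker gene, 1 with no minimum of nuclei and 0 to 2 with 1 library left out, and in immune-like nuclei 1, 1 (DESeq2 1) and 2, and 0 to 1.

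With common zone limits MASH Nrg1 was at -0.23, its interaction at 0.90, and Areg, Hbegf, Btc and Erbb4 turned to 0.80, 0.18, 0.23 and 0.026. With 1 library left out the Nrg1 zone interaction ran from -0.070 to 0.44 (-0.024 without chow replicate 1). Hepatocyte minus HSC Nrg1 was 0.043 with RLE and -3.90 to 0.12 with 1 library left out (0.0062 without MASH replicate 1). Against endothelial-like nuclei Nrg1 ran from 0.061 to 5.22 and Egfr from -2.87 to -0.54, and against immune-like nuclei Nrg1 from 2.11 to 4.88 and Egfr from -2.58 to -0.62. The share of nuclei with an Ereg UMI differed by -0.0077 to 0.035 percentage points with 1 library left out. The cause of these changes was not tested.

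Over all alternatives, genes called ran from 133 to 4207 in hepatocyte-like nuclei (2039 reported; 3432 with DESeq2 and 4207 with Storey q-values), 11 to 241 in cholangiocyte-like, 24 to 598 in HSC-like, 31 to 432 in endothelial-like and 13 to 423 in immune-like nuclei, against 96, 87, 52 and 62. Between zones they ran from 538 to 2273 in MASH and 168 to 1355 for the interaction, and for the lineage interactions from 8 to 106, 182 to 1024, 148 to 828 and 349 to 1243 (cholangiocyte-like, HSC-like, endothelial-like, immune-like).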
